A study of Mus musculus with 12 samples.

Results

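B2 elements are short interspersed elements (SINEs) of rodents, repeats that descend from a transfer RNA gene, carry an internal promoter for RNA polymerase III and are copied with the enzymes of LINE-1 elements. CG methylation of such repeats is a known layer of their silencing, and it is lost in large part while primordial germ cells (PGCs), from which oocytes and spermatozoa arise, migrate to the gonad. The rows described here were the repeat entries of class SINE/B2 that had a methylation level in all 12 libraries, and they numbered 1096 of the 1896 SINE/B2 rows seen in at least 1 library (57.8%), among 133311 features of all classes measured in all 12. Each row stands for 1 element name and 1 interval of that element's consensus sequence. The rows gave no genome position, and how copies with the same name and interval were combined is not given in the sources used here.

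The 12 mouse libraries were made by reduced representation bisulfite sequencing (RRBS), in which the enzyme MspI cuts at CCGG and bisulfite separates methylated from unmethylated cytosine. They fell into 6 groups of 2, all labelled as strain C57BL6. The stem cell groups were a female embryonic stem cell line (ESC) and a parthenogenetic embryonic stem cell line (pESC, derived from an activated oocyte and so without a paternal genome), neither put through the induction. Whether the lines were single clones is not stated in the labels, and methylation levels do not allow a check of the labelled cell types against expressed markers. ESC-PGCLC and pESC-PGCLC were PGC-like cells induced from these lines, by 2 days with knockout serum replacement, bFGF and Activin A to epiblast-like cells and then 4 days with BMP4, SCF, EGF and LIF. The study did not measure methylation of the epiblast-like cells. According to the study's methods the PGCLCs were sorted for CD61 and SSEA1, and the stem cell lines carried an Actin-GFP transgene. E9.5 PGC and E12.5 PGC were germ cells of embryos at embryonic day 9.5 and 12.5, an early and a late stage of this demethylation. By the study's methods these embryos were female, and PGCs were sorted for CD61 and SSEA1 or with SSEA1 magnetic beads. The study calls the 2 RRBS libraries of a group biological replicates, and the labels do not say which cultures or embryos each came from. Every p-value and every SD after a ± here covers the spread between these libraries. SDs, percentiles and correlations over rows do not.

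The levels are percentages of CG calls that were methylated, without read counts, so how deeply each value was read is unknown and no counting interval was computed. The number of SINE/B2 rows with a level was lowest at 1216 (ESC-PGCLC replicate 2) and highest at 1810 (pESC replicate 1). The ESC replicates stood apart from each other. They differed by 10 points or more at 584 of the 1096 rows (53.3%), against 8.58% to 16.7% of rows in the other 5 groups, and identical values occurred at no more than 5 rows in any pair.

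Averaged over the 1096 rows, SINE/B2 methylation was highest in E9.5 PGCs, at 65.0% and 64.7% in the 2 libraries. At E12.5 it was 42.4% and 42.9%. ESC-PGCLCs stood between the embryonic stages at 52.2% and 52.4%, and pESC-PGCLCs lay lower at 48.1% and 47.6%. The stem cells gave 43.9% and 34.5% in ESCs and 40.4% and 38.1% in pESCs. The germ cell groups therefore did not overlap with each other, whereas ESC replicate 1 lay above and ESC replicate 2 below both pESC libraries, and ESC replicate 1 also lay above both E12.5 libraries.

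The class comprised 5 element names. B2_Mm1a had 45 rows, B2_Mm1t had 56 and B2_Mm2 had 159. The remaining names, B3A with 371 rows and B3 with 465, are the more diverged relatives of the B2_Mm elements. B2_Mm1a was the most methylated name, with group means of 77.6% ± 1.20 at E9.5 and 51.3% ± 0.770 at E12.5 (SD, n = 2), 61.3% ± 0.400 in ESC-PGCLCs, 56.9% ± 0.363 in pESC-PGCLCs, 47.6% ± 8.91 in ESCs and 47.2% ± 2.06 in pESCs. B2_Mm1t followed with 71.1% ± 1.48 at E9.5, 47.9% ± 1.37 at E12.5, 58.1% ± 0.980 in ESC-PGCLCs, 53.4% ± 0.902 in pESC-PGCLCs, 44.2% ± 8.58 in ESCs and 42.9% ± 3.11 in pESCs (SD, n = 2). Both B2_Mm1 names were thus above the class mean in every group.

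B2_Mm2 had 66.7% ± 0.419 at E9.5, 43.4% ± 0.155 at E12.5, 53.4% ± 0.0512 in ESC-PGCLCs, 48.3% ± 0.270 in pESC-PGCLCs, 38.5% ± 6.89 in ESCs and 38.8% ± 1.67 in pESCs (SD, n = 2). B3A had 64.2% ± 0.197 at E9.5, 42.1% ± 0.409 at E12.5, 51.9% ± 0.115 in ESC-PGCLCs, 47.6% ± 0.458 in pESC-PGCLCs, 39.0% ± 6.27 in ESCs and 39.2% ± 1.46 in pESCs. B3 was lowest with 62.8% ± 0.0893 at E9.5, 41.4% ± 0.251 at E12.5, 50.7% ± 0.165 in ESC-PGCLCs, 46.4% ± 0.236 in pESC-PGCLCs, 38.2% ± 6.43 in ESCs and 38.3% ± 1.58 in pESCs. All 5 names ranked the germ cell groups alike, from E9.5 through ESC-PGCLC and pESC-PGCLC to E12.5.

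**Figure D1:**
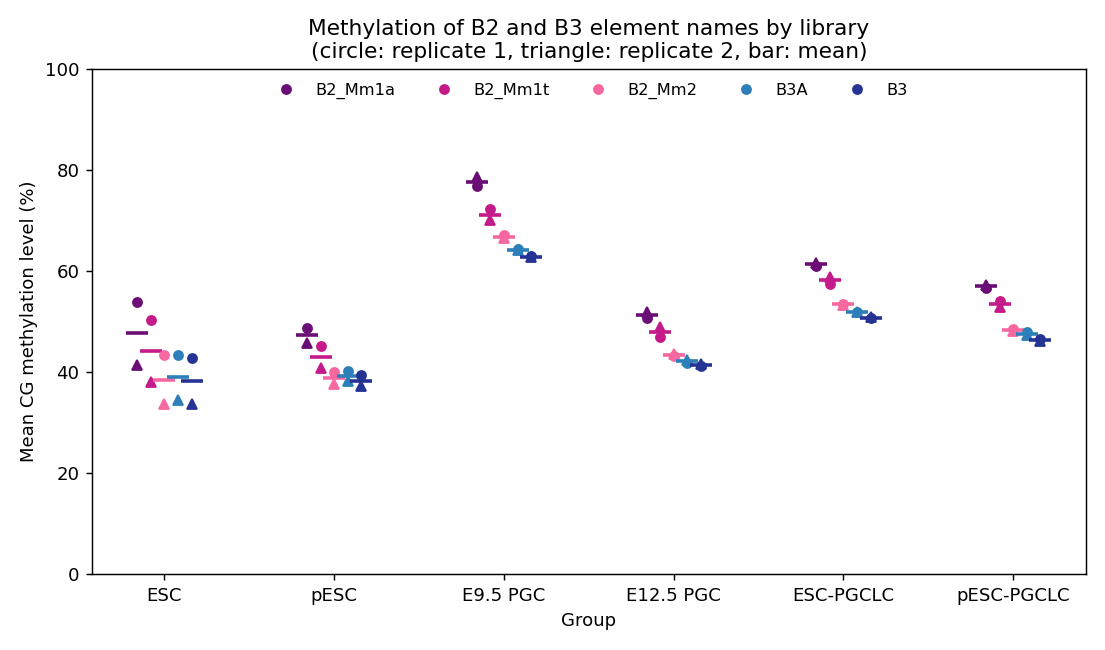
Mean CG methylation level in percent (y axis) of the rows of each of the 5 element names in each library, by group (x axis). Circles are replicate 1, triangles replicate 2 and bars the mean of both. Every name is highest in E9.5 PGCs, B2_Mm1a lies on top in all 12 libraries, and the ESC replicates are the widest apart.

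Within each library B2_Mm1a exceeded B2_Mm1t, by 2.61 to 8.40 points, and B2_Mm1t exceeded B2_Mm2, by 3.08 to 6.91 points, in 12 of 12 libraries. By medians over rows the first held in 10 of 12 libraries and the second in 12. B3A exceeded B3 in 12 of 12 libraries too, by only 0.608 to 1.44 points. B2_Mm2 and B3A did not separate, since B2_Mm2 was the higher in 8 of 12 libraries, with a difference of -0.935 to 2.67 points, and in 6 of 12 by medians. The rows of the B3 names together lay below those of the B2_Mm names in 12 of 12 libraries, by 3.98 points on average (B3 minus B2_Mm -6.28 to -1.87 points, exact two-sided sign-flip permutation test over the 12 libraries, p = 0.000488, the smallest this test can give). That test treats the 12 libraries as independent units, though they form 6 groups of 2. It says nothing about other rows, since the same rows were read in each library.

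The distance between the subfamilies was widest where the level was highest. B3 minus B2_Mm was -6.12 ± 0.231 points at E9.5 and -3.98 ± 0.203 at E12.5 (SD, n = 2), a change of 2.14 points with no overlap between the groups (exact two-sided permutation test, p = 0.333). With 2 libraries against 2 that test cannot give less than 0.333, so here and below the gap between the nearest replicates is the measure of separation. In stem cells the difference was -2.74 ± 1.24 points in ESCs and -2.50 ± 0.522 in pESCs, and among PGCLCs it was -4.54 ± 0.209 after ESC and -3.96 ± 0.0381 after pESC origin. As a share of the E9.5 level the names kept much the same at E12.5, namely 66.0% for B2_Mm1a, 67.3% for B2_Mm1t, 65.0% for B2_Mm2, 65.6% for B3A and 65.9% for B3.

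The names also differed in the stretch of consensus their rows cover. Rows beginning within bases 1 to 5 of the consensus, the end that holds the internal promoter, made up 88.9% of B2_Mm1a, 89.3% of B2_Mm1t, 72.3% of B2_Mm2, 52.0% of B3A and 46.2% of B3 rows. Over the class the 613 rows with such a start averaged 65.9% at E9.5 and 40.2% in ESCs, and the 483 that began later averaged 63.6% and 37.9%. This order did not hold within every name. At E9.5 rows with the early start were lower than the later ones in B2_Mm1a (76.6% and 85.8%, the latter from 5 rows), B2_Mm2 (65.3% and 70.3%) and B3A (63.8% and 64.6%), and higher in B2_Mm1t (72.4% and 60.3%, the latter from 6 rows) and B3 (64.5% and 61.4%). Among rows of like length, 171 to 200 bases, the means at E9.5 were 77.0% for B2_Mm1a (36 rows), 71.7% for B2_Mm1t (38), 64.1% for B2_Mm2 (71), 64.5% for B3A (137) and 63.9% for B3 (159). The B2_Mm1 names kept their distance in that length class, while B2_Mm2, B3A and B3 lay within 1 point of each other. The 37 shortest rows, of 28 to 60 bases, averaged 75.5% at E9.5 but 40.5% in ESCs, so they stood above the class in E9.5 PGCs and near it in ESCs. These are descriptions over rows, which are not replicates. Rows measured in all 12 libraries were also longer than the 800 others, with median lengths of 172 and 152 bases.

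Single rows varied far more than the names did. At E9.5 the middle of the distribution, from the 25th to the 75th percentile, ran from 53.9% to 77.4%, and 207 rows were above 80%. At E12.5 it ran from 35.6% to 50.7%, and 1 row was above 80%. The SD over rows was 18.1 points at E9.5, 12.5 at E12.5, 15.7 in ESC-PGCLCs, 13.8 in pESC-PGCLCs and 17.9 in ESCs. Rows under 20% numbered 177 in ESCs and 176 in pESCs but 31 at E9.5, 48 at E12.5, 43 in ESC-PGCLCs and 44 in pESC-PGCLCs.

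**Figure D2:**
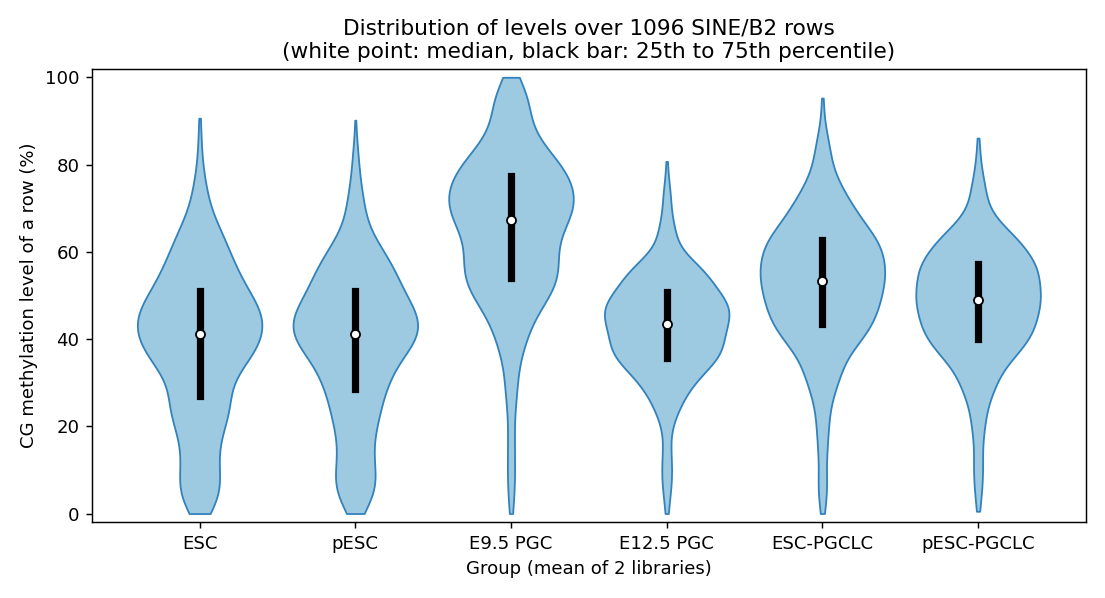
Distribution of the CG methylation level in percent (y axis) over the 1096 SINE/B2 rows in each group (x axis, mean of 2 libraries per row). White points are medians and black bars run from the 25th to the 75th percentile. E9.5 PGCs are centred at 67.2%, E12.5 PGCs are the narrowest, and ESCs and pESCs have a tail of rows under 20%.

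The order of the rows was shared between the stem cell lines and among the germ cell groups. Pearson's r over the 1096 group means was 0.962 between ESCs and pESCs, 0.849 between E9.5 and E12.5 PGCs and 0.907 between the 2 kinds of PGCLC. It was 0.532 between ESCs and E9.5 PGCs and 0.632 between ESCs and ESC-PGCLCs. Between stem cell and germ cell groups it ran from 0.509 (pESCs and E9.5 PGCs) to 0.712 (ESCs and pESC-PGCLCs), with 0.701 for pESCs and pESC-PGCLCs. All points share their libraries and their consensus sequences, so these values are descriptions.

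To see which rows made up the low tail of the stem cells, rows under 20% in all 4 stem cell libraries were taken. There were 128 (11.7%), against 17.1% of the rows of B1 elements (class SINE/Alu), 14.8% of those of B4 elements, which are other short repeats copied by LINE-1 enzymes, and 8.27% of all repeat rows outside SINE/B2, a set that here and below, as "other repeats", includes B1 and B4. Since low stem cell values chose them, their higher values elsewhere are given without a test. Their means were 7.46% and 7.64% in ESCs, 7.38% and 8.58% in pESCs, 50.3% and 50.1% at E9.5, 31.1% and 32.0% at E12.5, 36.7% and 36.0% in ESC-PGCLCs, with 31.5% and 31.6% in pESC-PGCLCs. In 47 of the 128 both E9.5 libraries exceeded 60%. These were 4.29% of SINE/B2 rows, against 4.65% of B1, 4.32% of B4 and 2.66% of other repeat rows. The extreme cases included the B3A row of consensus bases 1 to 93, at 4.17% and 0% in ESCs, 9.76% and 2.44% in pESCs, 96.2% and 97.5% at E9.5, 78.0% and 72.1% at E12.5, 68.4% and 61.0% in ESC-PGCLCs, with 62.0% and 62.5% in pESC-PGCLCs. The B2_Mm2 row of bases 112 to 180 went from 4.46% and 1.43% in ESCs and 6.58% and 7.10% in pESCs to 92.6% and 93.6% at E9.5, 54.7% and 60.6% at E12.5, 64.5% and 69.3% in ESC-PGCLCs, with 54.1% and 59.3% in pESC-PGCLCs. Both rows were named after their values were seen.

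At the other end, 20 rows (1.82%) stayed under 20% in every library, against 2.13% of the other repeat rows. They comprised 13 B3, 6 B3A and 1 B2_Mm2 row and no B2_Mm1a or B2_Mm1t row. By the highest value over the 12 libraries the B3 row of bases 105 to 170 was the lowest, between 0.465% and 1.23% in the 12 libraries, and the B3A row of bases 38 to 195 lay between 0.867% and 2.69%. These rows too were picked for their values.

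For the comparison of E12.5 with E9.5 PGCs, which asks how far the elements lost methylation in the embryo, the class mean differed by -22.2 points, with 21.8 points between the nearest replicates. Of the 1096 rows, 1079 were lower at E12.5 and 17 higher. A row was called differentially methylated where limma, fitted over all features, gave an adjusted p under 0.05 and the levels of both groups lay 10 points or more apart. By this rule 928 rows were called and all 928 were lower, or 84.7%, against 49.6% of all features (49.6% lower and 0.035% higher) and 84.9% of all repeat rows, so the share was that of repeats in general. By name, 40 of 45 B2_Mm1a, 51 of 56 B2_Mm1t, 140 of 159 B2_Mm2, 312 of 371 B3A and 385 of 465 B3 rows fell. The median row difference was -22.6 points, and -19.4 over the other repeat rows. Of the 168 rows without a call, 101 differed by less than 10 points and 65 had an E9.5 mean under 40%. When each library was centred on its median over all features, which differed by -16.0 points between these stages, 342 rows were called (31.2%), 28.4% of rows lower and 2.83% higher. Over all features centring gave 46.3% called, 12.6% lower and 33.7% higher, and over all repeat rows 19.4%, 17.2% lower and 2.18% higher. The share of SINE/B2 rows called in either direction was then below that of all features, and the share called lower above it. Higher and lower on this scale are relative to the library median. Without centring 0.035% of all features were called higher.

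The largest fall was in the B3 row of bases 15 to 112. It stood at 87.7% and 100% at E9.5 and at 18.9% and 27.0% at E12.5, with 54.7% and 66.7% in ESC-PGCLCs, 33.3% and 52.9% in pESC-PGCLCs, 9.62% and 6.09% in ESCs and 19.0% and 8.70% in pESCs. The germ cell groups of this row did not overlap, and the difference was -70.9 points (log2 odds -6.42, SE 1.22, limma adjusted p = 0.00421). No row was called higher at E12.5.

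**Figure D3:**
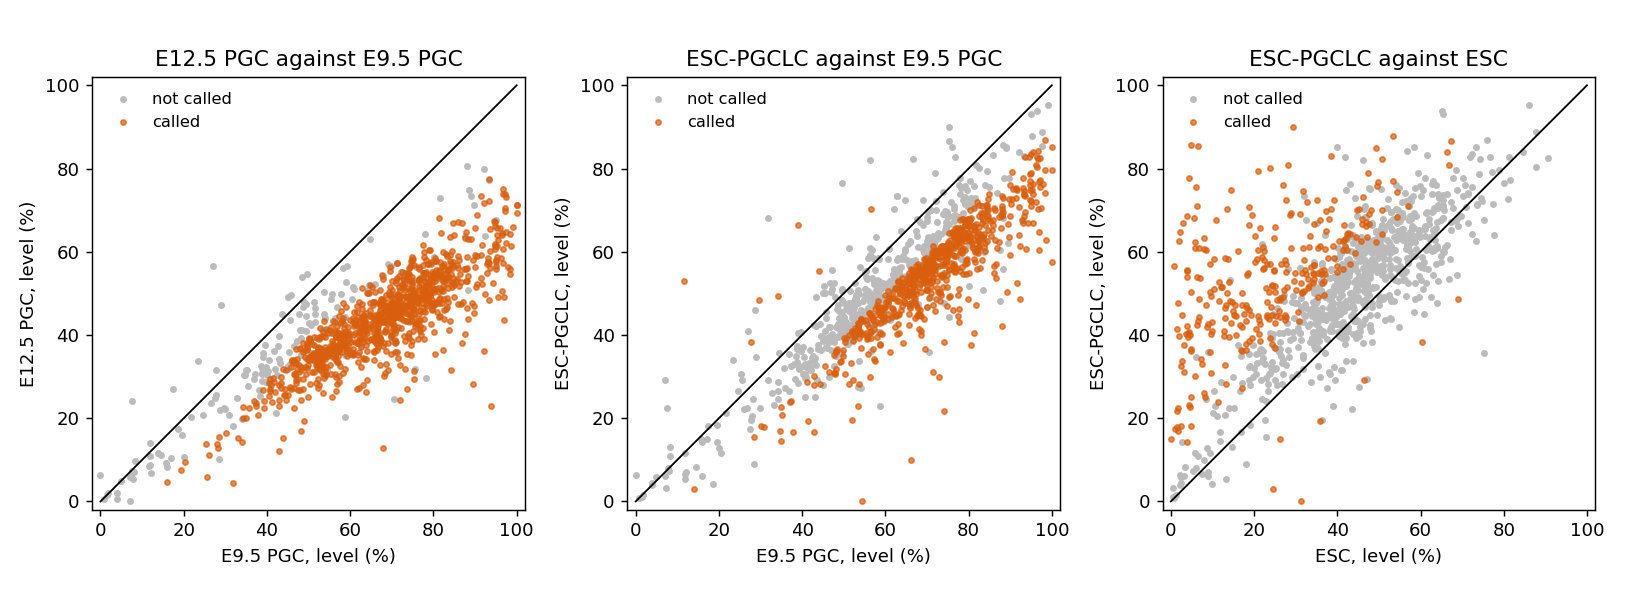
Methylation level in percent of each of the 1096 SINE/B2 rows in 1 group against another (group means of 2 libraries), for E12.5 against E9.5 PGCs, ESC-PGCLCs against E9.5 PGCs and ESC-PGCLCs against ESCs. Orange points were called by limma, grey points were not, and the line marks equal levels. The 928 calls of the first panel all lie below the line, and many calls of the third panel are rows near 0 in ESCs.

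The PGCLCs were compared with the embryonic cells of both stages. These comparisons share the E9.5 or the E12.5 libraries. The class mean of ESC-PGCLCs differed from E9.5 by -12.6 points, with 12.4 points between the nearest replicates, and 639 rows were called (58.3%), 632 lower and 7 higher, against 29.8% of all features (29.6% lower, 0.168% higher) and 41.4% of repeat rows. For pESC-PGCLCs the difference was -17.0 points, with 16.7 between the nearest replicates, and 813 rows were called (74.2%), 811 lower and 2 higher, against 40.3% of all features (40.2% lower, 0.127% higher) and 62.7% of repeat rows. Both shares lay above those of repeat rows. Relative to E9.5, 80.6% of the SINE/B2 level remained in ESC-PGCLCs and 73.8% in pESC-PGCLCs, where the other repeats kept 83.7% and 78.0%, B1 elements 79.1% and 73.0%, and B4 elements 79.5% and 73.0%. SINE/B2 thus kept less than repeats at large and slightly more than B1 and B4. After centring on the library median, which differed from E9.5 by -10.1 points in ESC-PGCLCs and -12.1 in pESC-PGCLCs, 147 rows (13.4%) were called in ESC-PGCLCs, 33 higher and 114 lower, and 227 rows (20.7%) in pESC-PGCLCs, 20 higher and 207 lower. Those shares were below the 21.6% and 35.7% of all features, where most calls were higher (17.1% and 27.2% of features), and above the 9.43% and 13.7% of repeat rows. These higher calls too are relative to the library median. Without centring 0.168% and 0.127% of all features were called higher.

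Few rows went the other way. B2_Mm1t bases 4 to 193 rose most in both kinds of PGCLC, where the E9.5 libraries had 11.8% and 11.4%, the ESC-derived ones 46.0% and 59.7% (limma adjusted p = 0.00204) and the pESC-derived ones 56.9% and 49.2% (limma adjusted p = 0.00118). It was at 5.71% and 11.1% in E12.5 PGCs, at 66.7% and 61.6% in ESCs and at 77.3% and 66.4% in pESCs, so the cultured cells were high and the embryonic cells low in this row. The largest fall from E9.5 to ESC-PGCLCs was in B2_Mm1t bases 35 to 189, from 62.7% and 69.7% to 15.4% and 4.55% (-56.2 points, limma adjusted p = 0.00312), while pESC-PGCLCs had 23.6% and 12%, E12.5 PGCs 37.9% and 42.2%, ESCs 8.08% and 7.83% and pESCs 8.19% and 10.8%. That row was the reverse case, high in the embryonic and low in the cultured cells. For pESC-PGCLCs the largest fall was again in B3 bases 15 to 112, by 50.7 points (limma adjusted p = 0.0137), a call that was lost without pESC-PGCLC replicate 1 (limma adjusted p = 0.0739).

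Against E12.5 PGCs, ESC-PGCLCs were 9.62 points higher, with 9.30 between the nearest replicates, and 451 rows were called (41.1%), 437 higher and 14 lower, against 22.8% of all features (22.2% higher, 0.523% lower) and 39.7% of repeat rows. After centring, 119 rows were called (10.9%), 95 higher and 24 lower, against 5.97% of all features and 8.99% of repeat rows. pESC-PGCLCs were 5.18 points above E12.5, with 4.69 between the nearest replicates, and 118 rows were called (10.8%), 117 higher and 1 lower, against 7.1% of all features (6.81% higher, 0.287% lower) and 12.5% of repeat rows. After centring 8 were called (0.73%), 6 higher and 2 lower, against 0.828% of all features and 1.27% of repeat rows. The count of 118 moved with single libraries, since leaving out any 1 of the 8 libraries of the fit lowered it. It was lowest without a pESC-PGCLC or an E12.5 library. The share over all features, 7.1% with all 8 libraries, fell in each of these fits too.

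B3A bases 24 to 168 rose most in ESC-PGCLCs against E12.5, with 34.3% and 40.0% at E12.5 and 73.5% and 90.9% in ESC-PGCLCs (45.1 points, limma adjusted p = 0.00780). It had 67.2% and 66.2% at E9.5, 58.8% and 57.6% in pESC-PGCLCs, 58.5% and 42.9% in ESCs and 50.9% and 40.3% in pESCs. The largest fall was in B3 bases 20 to 212, for which both ESC-PGCLC libraries are listed at 0% against 31.8% and 31.4% at E12.5 (-31.6 points, limma adjusted p = 0.00860), and was not called with untransformed levels (limma adjusted p = 0.218) or an offset of 0.1 (limma adjusted p = 0.0584). Its pESC-PGCLC replicates disagreed, with 37.2% and 85.7%, and the remaining values were 45.6% and 63.2% at E9.5, 24.5% and 38.1% in ESCs and 46.6% and 41.7% in pESCs. For pESC-PGCLCs against E12.5 the largest rise was in B2_Mm1t bases 4 to 193 (44.6 points, limma adjusted p = 0.0125). The only row called lower was B3 bases 1 to 147, with 59.9% and 63.5% at E12.5 against 45.7% and 44.7% in the pESC-derived cells (limma adjusted p = 0.0173), and with 77.1% and 77.9% at E9.5, 42.4% and 46.8% in ESC-PGCLCs, 32.6% and 17.9% in ESCs and 18.5% and 19.9% in pESCs. Both of these calls were lost without either pESC-PGCLC library, with limma adjusted p of 0.0811 and 0.0636 for the B2_Mm1t row and 0.0906 and 0.0800 for the B3 row, and also without E12.5 replicate 1, at 0.0545 and 0.0643. The B3 call was lost in 6 of 15 alternatives, the others being without E12.5 replicate 2 (limma adjusted p = 0.0614), in a fit of all 12 libraries (limma adjusted p = 0.20) and with a minimum difference of 20 points.

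**Figure D4:**
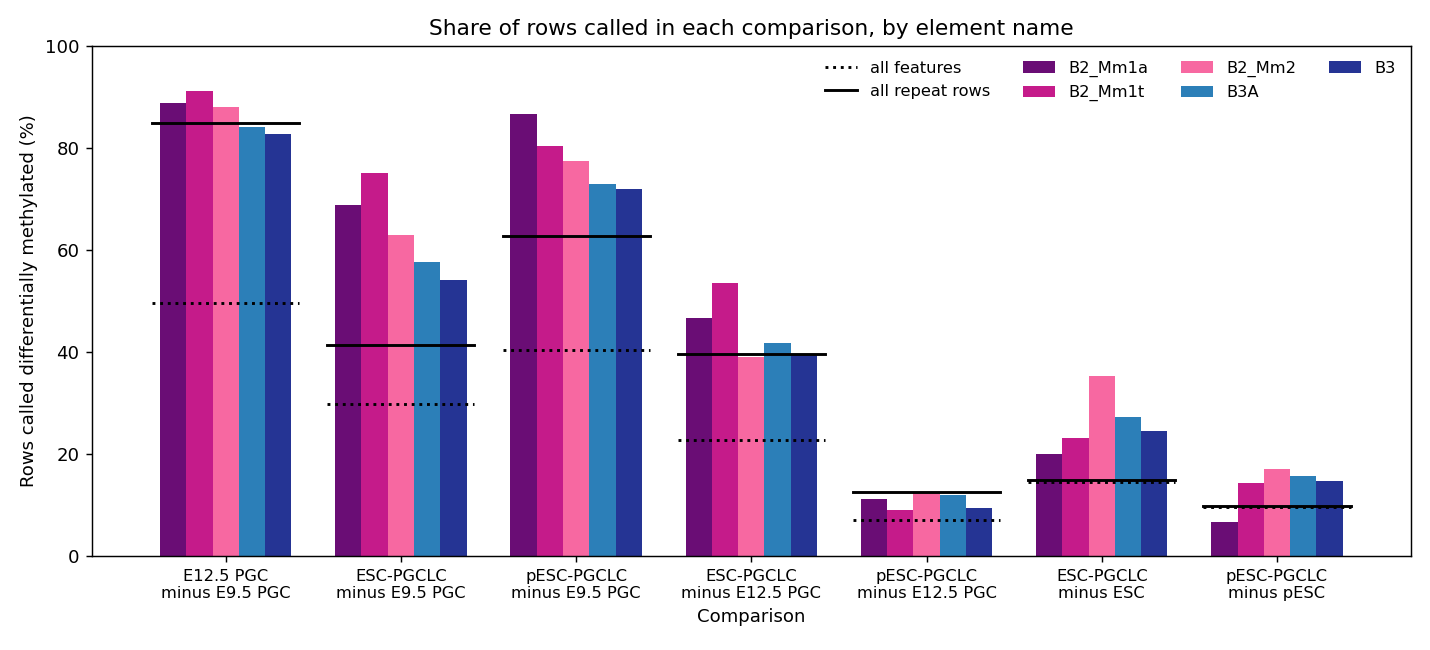
Share in percent of the rows of each element name that limma called (bars) in 7 comparisons (x axis), with the share over all features (dotted line) and over all repeat rows (solid line). The bars reach 82.8% to 91.1% for E12.5 against E9.5 PGCs and lie above both lines for the PGCLC comparisons with E9.5.

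The difference between the 2 origins was then measured in the PGCLCs and in the stem cells. The class mean of pESC-PGCLCs minus that of ESC-PGCLCs was -4.44 points, with 4.15 points between the nearest replicates, and 896 of the 1096 rows were lower. The other repeats differed by -3.70 points in the same direction. Row by row limma called 2 rows (0.182%), both lower, against 0.0948% of all features (0.0503% lower, 0.0445% higher) and 0.134% of repeat rows, with 360 rows (32.8%) at an unadjusted p under 0.05, against 19.4% of all features and 24.9% of repeat rows. After centring 0 rows were called, against 0.0751% of all features. Rows at an unadjusted limma p under 0.05 were not set against all features on the centred scale. Of the 2 rows called without centring, the first was B3 bases 10 to 116, with 77.2% and 81.6% in ESC-PGCLCs, against 55.5% and 57.6% in the pESC-derived cells (-22.9 points, limma adjusted p = 0.0474), which had 84.3% and 84.5% at E9.5, 55.0% and 57.2% at E12.5, 28.1% and 13.6% in ESCs and 17.0% and 12.7% in pESCs. The second, named because the count was small, was B2_Mm1t bases 1 to 183, with 80.3% and 81.6% in ESC-PGCLCs, against 66.2% and 65.7% in the pESC-derived cells (-15.0 points, limma adjusted p = 0.0412), and with 81.7% and 81.8% at E9.5, 63.4% and 65.4% at E12.5, 35.1% and 21.4% in ESCs and 32.2% and 30.4% in pESCs. In both rows ESC-PGCLCs lay near the E9.5 level and pESC-PGCLCs near the E12.5 level. The count of 2 rose without ESC-PGCLC replicate 1 and fell without most other single libraries of the fit. The share over all features rose in the first case and fell in the others.

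Between pESCs and ESCs the class means differed by 0.0769 points and the libraries overlapped (exact two-sided permutation test, n = 2 and 2, p = 1). limma called 0 rows (0%), as it did over all features (0%). At an unadjusted limma p under 0.05 there were 20 rows (1.82%), against 1.39% of all features and 1.44% of repeat rows. Leaving out ESC replicate 2 gave -4.63 points and leaving out ESC replicate 1 gave 4.78, so the direction rested on which ESC library was used.

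After induction the class mean was higher by 13.1 points than in ESCs, with 8.34 between the nearest replicates, and by 8.59 points than in pESCs, with 7.19 between them. The first value was 17.8 without ESC replicate 1 and 8.40 without ESC replicate 2. From ESCs and from pESCs, B1 was higher by 13.1 and 9.19 points and B4 by 11.8 and 7.93. The other repeats were higher by 7.77 and 4.56 points. From ESCs 293 rows were called (26.7%), 286 higher and 7 lower, against 14.6% of all features (13.7% higher, 0.899% lower) and 15.0% of repeat rows, and from pESCs 165 (15.1%), 162 higher and 3 lower, against 9.66% of all features (8.91% higher, 0.746% lower) and 9.79% of repeat rows. The split depended on the scaling. The library median over all features was 12.8 points higher after induction from ESCs and 10 from pESCs, and relative to it the class mean differed by 0.349 points from ESCs and by -1.44 points from pESCs, so that the second direction turned. On this scale 120 rows were called higher and 199 lower from ESCs (29.1%), and 93 higher and 199 lower from pESCs (26.6%). These shares were below those of all features, 52.1% and 33.3%, and of repeat rows, 44.4% and 41.8%, in which the calls were mostly lower as well (46.9% and 28.9% of all features). Lower here is relative to the library median, which had risen. Without centring 0.899% and 0.746% of all features were called lower from ESCs and pESCs. The count from ESCs moved with single libraries. It rose without ESC replicate 1 and fell without either ESC-PGCLC library. From pESCs the count fell without either pESC-PGCLC library. It rose without either ESC library, which enters that fit only through the shared variance. The shares over all features moved in the same directions. The test of whether the change differed between the origins called 0 rows (0%), against 0.0365% of all features and 0.0327% of repeat rows. At an unadjusted limma p under 0.05 there were 63 rows (5.75%), against 2.96% of all features and 3.11% of repeat rows.

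By name the calls from ESCs were 9 of 45 B2_Mm1a, 13 of 56 B2_Mm1t, 56 of 159 B2_Mm2, 101 of 371 B3A and 114 of 465 B3 rows. The largest rise was in B3A bases 38 to 187, from 2.41% and 7.17% in ESCs to 83.0% and 88.6% in ESC-PGCLCs (81.0 points, limma adjusted p = 0.000205). It had 4.68% and 10.4% in pESCs, 55.3% and 58.1% in pESC-PGCLCs, 87.0% and 89.5% at E9.5, with 39.8% and 48.0% at E12.5, so ESC-PGCLCs overlapped with E9.5 in this row while pESC-PGCLCs did not. The largest fall was the row listed at 0% in ESC-PGCLCs, B3 bases 20 to 212, by 31.3 points (limma adjusted p = 0.00534, and 0.301 with untransformed levels or 0.0952 with an offset of 0.1).

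From pESCs the largest rise was in B3A bases 30 to 113, from 7.58% and 18.8% to 59.1% and 86.8% (59.8 points, limma adjusted p = 0.0328), a call lost without pESC-PGCLC replicate 2 (0.188) or without either pESC library (0.193 and 0.0717, limma adjusted p). This row had 9.38% and 3.73% in ESCs, 75.3% and 95.5% in ESC-PGCLCs, 97.4% and 97.7% at E9.5, with 53.1% and 70.9% at E12.5. The largest fall was in B3 bases 2 to 185, from 26.8% and 35.1% to 3.10% and 6.38% (-26.2 points, limma adjusted p = 0.00128). It was at 2.97% and 3.07% in ESC-PGCLCs, 23.2% and 25.7% in ESCs, 8.69% and 19.1% at E9.5, with 12.6% and 10.7% at E12.5, so both kinds of PGCLC lay below the embryonic and the stem cells.

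To separate the behaviour of SINE/B2 from that of repeats at large, its mean was set against other repeats within each library. SINE/B2 exceeded B1 elements by 2.04 to 3.79 points and B4 elements by 0.960 to 2.40 points in 12 of 12 libraries, and lay below all other repeats in 12 of 12, by 0.149 to 7.98 points (B2 minus other repeats -7.98 to -0.149). For each of these 3 differences the exact two-sided sign-flip permutation test over the 12 libraries gave p = 0.000488, the smallest it can give. It treats the libraries as independent units, though they form 6 groups of 2. The order against all other repeats at E9.5 depended on the summary. By medians over rows SINE/B2 lay above them there, at 67.2% and 67.5% against 66.9% and 66.8%. Means over all rows of each library were 64.62% against 64.59% in E9.5 replicate 1 and 64.33% against 64.34% in replicate 2. By medians SINE/B2 also lay below B4 in ESC replicate 1 (45.8% against 46.1%). As a difference of means, the distance to all other repeats changed most between groups. It was -7.53 ± 0.645 points in ESCs and -6.97 ± 0.334 in pESCs but -0.205 ± 0.0803 at E9.5, -2.33 ± 0.0592 at E12.5, -2.94 ± 0.120 in pESC-PGCLCs and -2.19 ± 0.0318 in ESC-PGCLCs (SD, n = 2).

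The shortfall against other repeats was smaller after induction. It changed by 5.34 points from ESCs to ESC-PGCLCs and by 4.03 from pESCs to pESC-PGCLCs, with no overlap between the groups (exact two-sided permutation test, p = 0.333 for each). From E9.5 to E12.5 it changed by -2.13 points, also without overlap. Against B1 and B4 the changes were smaller. B2 minus B1 moved by -0.892 points from E9.5 to E12.5, by -0.0288 from ESCs to ESC-PGCLCs, where the groups overlapped, and by -0.598 from pESCs to pESC-PGCLCs. B2 minus B4 moved by 0.169, 1.31 and 0.655 points in the same 3 comparisons. The share of the E9.5 level kept at E12.5 was 65.8% for SINE/B2, 65.6% for B1, 64.4% for B4 and 69.1% for all other repeats.

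**Figure D5:**
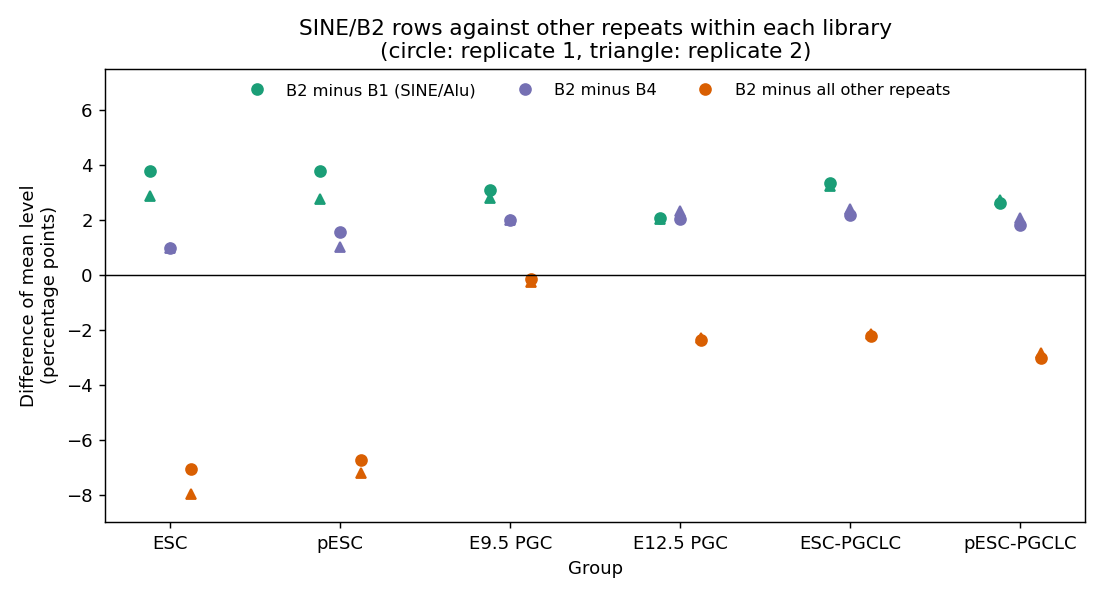
Mean level of the SINE/B2 rows minus that of B1, B4 and all other repeat rows within the same library, in percentage points (y axis), by group (x axis). Circles are replicate 1 and triangles replicate 2. SINE/B2 lies above B1 and B4 in all 12 libraries, and its shortfall against all other repeats is largest in the stem cells and nearly closes in E9.5 PGCs.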

How the data were processed

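The authors cut 12 genomic DNA samples with MspI, aligned the bisulfite reads with Bismark 0.16.3 and Bowtie2 to mm10 (per the submitters' processing notes and the study's methods), and deposited for each library the methylation level of each feature as a fraction of CG calls. The study's methods state a correction for non-conversion. A coverage minimum is not given in the sources used here. Groups and replicate numbers came from the sample titles.

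Levels were compared with limma 3.58.1 (R 4.3.3) on log2((level + 0.01) / (1 - level + 0.01)) over all features that every library of the fit had measured, with Benjamini-Hochberg adjustment over all of them. The pESC and ESC fit held 4 libraries, the PGC and PGCLC fit 8 and the induction fit 8. Class means were compared with exact permutation tests (scipy 1.17.1). The limma step was also run on simulated data with few shifted features. That setting does not cover comparisons in which a large share of all features shifted. Named rows are those with the largest rise and fall called in each comparison. The alternatives were another offset, untransformed levels, centring (with the 10-point minimum applied to levels minus the library median), no or a larger minimum difference, a fit of all libraries, a replicate block and leaving out each library. With centring, limma was fitted to log2 odds minus their library median. Features whose direction differed between centred log2 odds and centred levels were not called. The members, lists and tests were chosen with earlier results of these data known. No consensus or genomic sequence of these elements was used here.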

Additional observations from a re-analysis of the deposited data

How the results depend on the processing

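The class means of 7 of the 9 comparisons kept their direction under every alternative run, the exceptions being pESCs against ESCs and, with centring alone, pESC-PGCLCs against pESCs. Centring of the class and name means on the library median was added after the data were seen. It gave -1.44 for the class from pESCs to pESC-PGCLCs (B2_Mm1a -0.33, B2_Mm2 -0.605, B3A -1.61, B3 -1.93), -0.244 for B3 from ESCs to ESC-PGCLCs, and -0.985 for the class between pESCs and ESCs (B2_Mm2 -0.683, B3A -0.856, B3 -0.986). For pESCs against ESCs the uncentred class difference was -0.0593 with all rows of each library, -0.197 as the mean of the 5 name means and -4.63 to 4.78 without 1 library. By name, leaving out 1 library gave -6.70 to 5.90 for B2_Mm1a, -7.31 to 4.82 for B2_Mm1t, -4.49 to 5.25 for B2_Mm2, -4.23 to 4.64 for B3A (and -0.445 with all rows) and -4.47 to 4.62 for B3. The change of B2 minus B4 from E9.5 to E12.5 was -0.187 by medians and -0.0106 on the log odds scale, and that of B2 minus B1 from ESCs to ESC-PGCLCs was -0.496 to 0.438 without 1 library.

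Centring on the library median gave 342 calls (31.2%) for E12.5 against E9.5, where 46.3% of all features were called. For ESC-PGCLCs and pESC-PGCLCs against E9.5 it gave 147 (13.4%) and 227 (20.7%), against 21.6% and 35.7% of all features. Against E12.5 it gave 119 (10.9%) and 8 (0.73%), against 5.97% and 0.828% of all features. It gave 0 between the PGCLCs, against 0.0751%, and 292 (26.6%) for pESC-PGCLCs against pESCs, against 33.3%. A minimum difference of 20 points gave 152 and 365 calls for the PGCLCs against E9.5, where 5.59% and 13.9% of all features were called. Against E12.5 it gave 96 and 15 calls, where all features gave 3.83% and 0.910%. Between the PGCLCs it gave 1 call, against 0.0561% of all features. One fit of all 12 libraries gave 166 and 6 calls against E12.5, with 9.97% and 0.464% of all features called. Between the PGCLCs, an offset of 0.1 gave 38 and untransformed levels 52, against 0.974% and 1.29% of all features. Without 1 library the calls were 0 to 6 for pESCs against ESCs (6 and 2 without pESC replicates 1 and 2), 0 to 73 for pESC-PGCLCs against E12.5, 0 to 11 between the PGCLCs, 149 to 588 and 89 to 284 for induction from ESCs and pESCs, and 0 to 4 for the difference between the inductions (4 without ESC-PGCLC replicate 1). The call of B3 bases 10 to 116 between the PGCLCs was lost in 10 of 15 alternatives, such as centring (limma adjusted p = 0.0908). The causes were not tested.

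The labels do not say that equal replicate numbers pair the libraries, and only 2 numbers exist. Deviations of same-numbered libraries correlated at 0.518 between ESCs and pESCs over all features, at 0.183 between E9.5 PGCs and ESC-PGCLCs, and between -0.0602 and 0.0804 for the other pairs of groups. With the replicate number as a block, 77 rows were called for pESC-PGCLCs against E12.5 and 0 between the PGCLCs. All features then gave 5.01% and 0.0277%. The other counts stayed within 1.5 times the value without the block.

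Without read counts, a level of 0% or 100% cannot be told from a thinly read one. Groups of 2 libraries limit every test of a mean.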
